A study of Mus musculus with 2 samples.

Results

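Serpins, a superfamily of protease inhibitors, were examined in implantation sites of mouse uterus on day 8 of pregnancy. The members are all probe sets whose platform gene symbol is Serpin followed by a clade letter and a number. The rule found 42 probe sets of 22626 analysed on the array, of which 39 carry the symbol of a single gene and 3 carry several. The single-symbol probe sets stand for 30 genes of 12393 on the array, in 8 clades. Total RNA was extracted from sites dissected out of the uterus of females aged 4 months, on a C57Bl/6J X OLA129 background. Control females gave 1 array, and homozygous Cbs null females gave another. Cbs encodes cystathionine beta-synthase, an enzyme that removes homocysteine. The deleted part of the gene, the conceptus genotype and any pooling of sites or females for an array are not stated in the labels. Since each genotype has 1 array, no spread between animals could be estimated, and the differences reported are those between a pair of arrays, without a statistical test.

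A serpin offers a protease an exposed reactive loop as bait. When the protease cuts the loop, the serpin changes shape and holds the enzyme in an inactive complex that cells then take up and degrade. Clade A, C, D, F and G members are mostly secreted and control clotting, fibrinolysis, complement and inflammation, while clade B members lack a classical secretion signal and protect cells from proteases released inside them or nearby. Some members do not inhibit proteases and act as hormone carriers or as chaperones. At an implantation site, invading trophoblast, a decidua filled with granzyme-rich natural killer cells, and new vessels lie side by side.

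Signals are the deposited intensities, which are linear and were used as deposited. The mean signal left after trimming 2% at each end was 200.08 on both arrays. Values under a floor of 14.3 were raised to it, and a gene was counted as measured where the mean of its signals was at least 70.5, the median over probe sets. Ratios are log2 of Cbs null over control. They had a median of 0.02 over the 7079 measured genes, and 95% of these genes lay between -0.48 and 0.58. The probe sets of Cbs itself read 30.3 and 29.9 in control and 23.8 and 22.3 in Cbs null, all under 70.5, and do not check the genotype. Markers of the labelled tissue were present, with 10 of 11 genes of decidua and stroma and 7 of 7 of smooth muscle measured. The 10 had 5 ratios above 0 and 5 below, with a median of -0.02. Of them 3 (Bmp2, Tdo2 and Fst) were at least 1.5-fold lower, against 1.33% of measured genes. None was at least 1.5-fold higher, against 2.46%. The part of decidua in the Serpin values was not tested.

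Most Serpin genes were too dim to measure. Only 9 of 30 (30.0%) passed the signal filter, against 57.1% of all genes on the array, and they came from 5 clades. The 9 were Serpina3n, Serpinb1a, Serpinb6a, Serpinb6b, Serpinb9, Serpinb9b, Serpinf1, Serping1 and Serpinh1. All 9 read over 70.5 on both arrays, so none passed through a single array. Their median log2 ratio was -0.11, with a range of -0.95 to 0.51. A ratio below 0 was found for 6 of 9, against 44.9% of all measured genes. Only Serpinb9b was at least 1.5-fold lower, against 1.33% of measured genes, and none was at least 1.5-fold higher, against 2.46%. None was 2-fold apart in either direction, against 0.283% of genes lower and 0.622% higher.

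**Figure D1:**
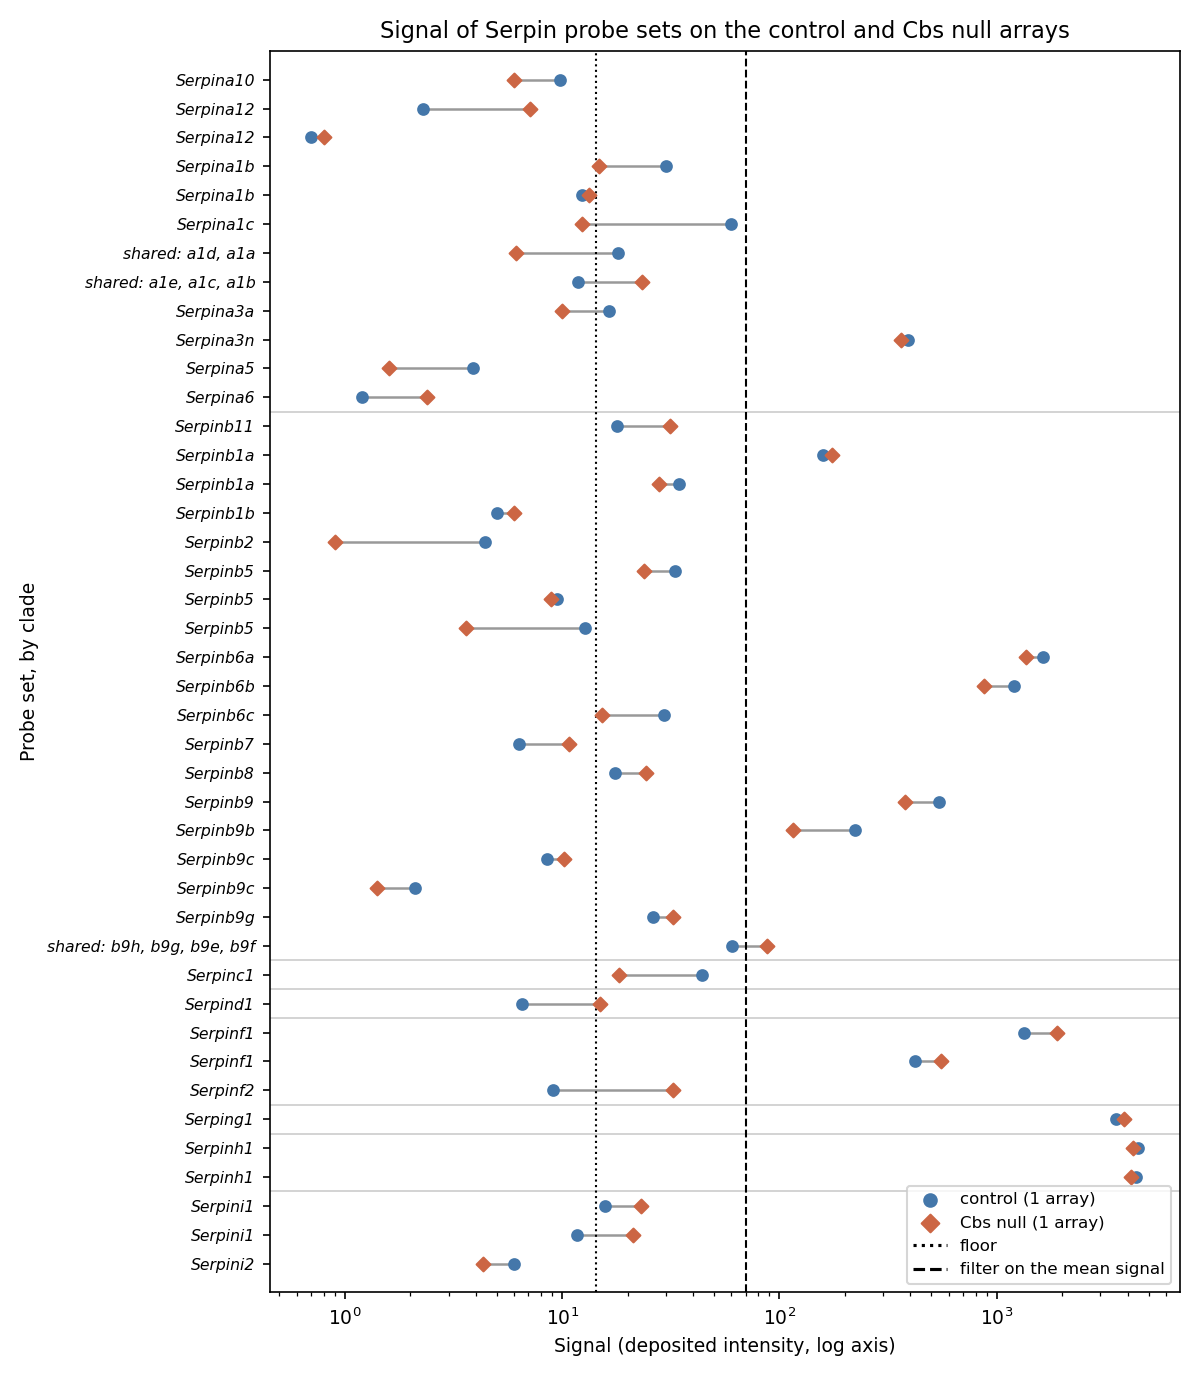
Signal of each of the 42 Serpin probe sets on the control array (circles) and the Cbs null array (diamonds), on a log axis and ordered by clade from A at the top to I at the bottom. The dotted line is the floor of 14.3 and the dashed line the filter of 70.5. Most probe sets lie left of the dashed line, and Serpinb9b, Serpinb9 and Serpinb6b lie right of it with the Cbs null value below control.

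**Figure D2:**
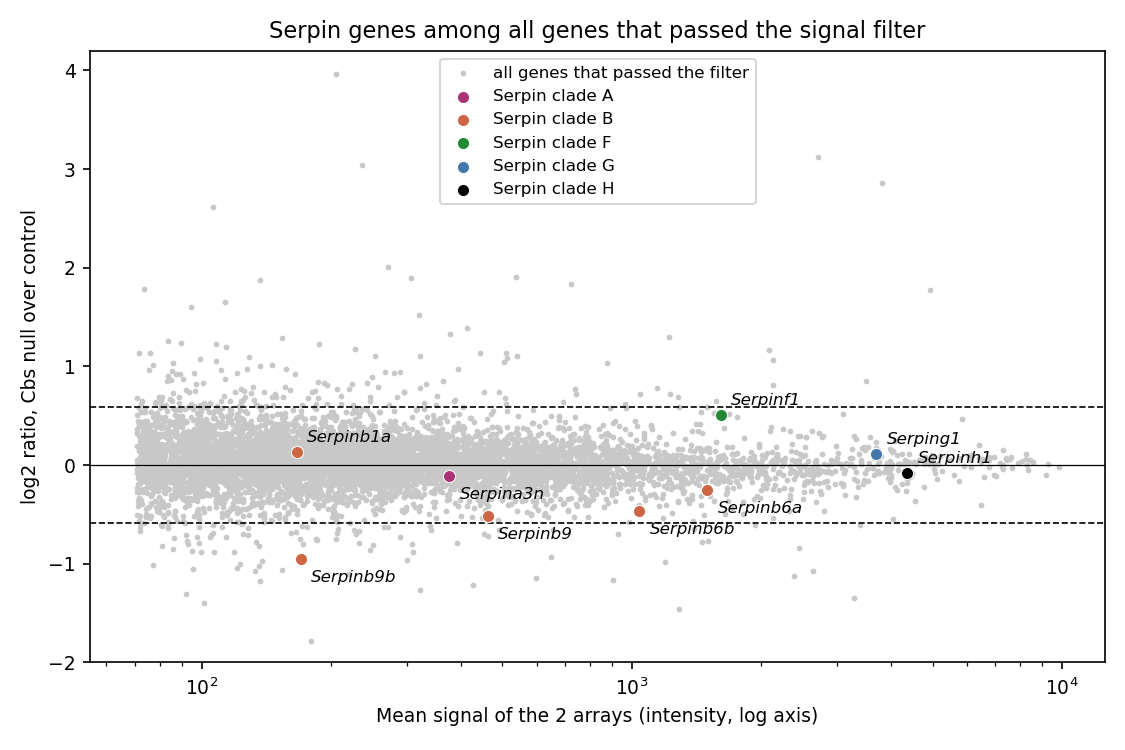
Log2 ratio of Cbs null over control against the mean signal of the arrays (log axis) for the 7079 measured genes in grey and the 9 measured Serpin genes in colour. Dashed lines mark 1.5-fold. Serpinb9b, at -0.95, is the only Serpin gene beyond a dashed line, and Serpinf1, at 0.51, is the highest.

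Clade B, the intracellular branch, held the largest differences, and all but Serpinb1a of its measured members were lower in Cbs null sites. Its 5 measured genes of 14 on the array had a median log2 ratio of -0.47. Serpinb9b, a close relative of the granzyme B inhibitor, read 223.7 on the control array and 116.0 on the Cbs null array, 1.93-fold lower at a log2 ratio of -0.95. A ratio as low was found for 0.339% of all measured genes and for 0.212% of genes in its own tertile of signal. Serpinb9, which inhibits granzyme B and protects cytotoxic cells and their neighbours from it, read 543.9 and 379.8, 1.43-fold lower at -0.52. Serpinb6b, which inhibits granzyme A, read 1205.8 and 872.4, 1.38-fold lower at -0.47. Of genes in the bright tertile, 1.44% had a ratio as low as Serpinb9 and 1.95% as low as Serpinb6b. Serpinb6a, an inhibitor of cathepsin G and related proteases in many tissues, read 1626.5 and 1367.7, a ratio of -0.25 that 9.85% of measured genes reached. Serpinb1a, which inhibits neutrophil elastase, went the other way, at 158.6 and 173.7 with a ratio of 0.13. Its other probe set was dim and disagreed, at 34.5 and 27.8 with -0.31. Each of the 4 lower genes rested on a single probe set, and clade B genes have close copies, so how far a copy adds to these signals is uncertain.

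Most measured markers of uterine natural killer cells were also lower on the Cbs null array. Of 14 listed markers, 12 were measured, 11 had a ratio below 0 and all 11 of these were past 1.5-fold, while Klrk1 had 0.05. Of all measured genes, 44.9% were below 0 and 1.33% at least 1.5-fold lower. Il2rb among the 11 passed the filter through the control array alone, and its other measured probe set had -0.32. The median of the 12 was -0.97. Together the 12 summed to 19200.1 on the control array and 8817.7 on the Cbs null array, and most of that signal came from granzymes. None of the markers on the array was listed at 0. Their part in the lower clade B values was not tested. In such bulk samples fewer cells of a type and less RNA per cell cannot be told apart.

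All measured clade B genes, lower or not, sit in the same cluster of the genome. Serpina3n and Serpinh1, also with ratios below 0, lie elsewhere, on chromosomes 12 and 7. RefSeq places 16 protein-coding Serpin genes on chromosome 13, in a run of clade B genes between Wrnip1 and Nqo2. Of these, 9 had a single-symbol probe set and 5 were measured, which are all measured members of clade B. Serpinb6b, Serpinb9 and Serpinb9b are direct coding neighbours in that order, with ratios of -0.47, -0.52 and -0.95. Serpinb1a, at 0.13, lies near the Wrnip1 end and Serpinb6a, at -0.25, next to Nqo2. The clade B genes on chromosome 1 contrast with these, since none of the 5 with a single-symbol probe set (Serpinb2, Serpinb5, Serpinb7, Serpinb8 and Serpinb11) reached the filter. On chromosome 12, which holds the clade A genes, 1 of 8 was measured.

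**Figure D3:**
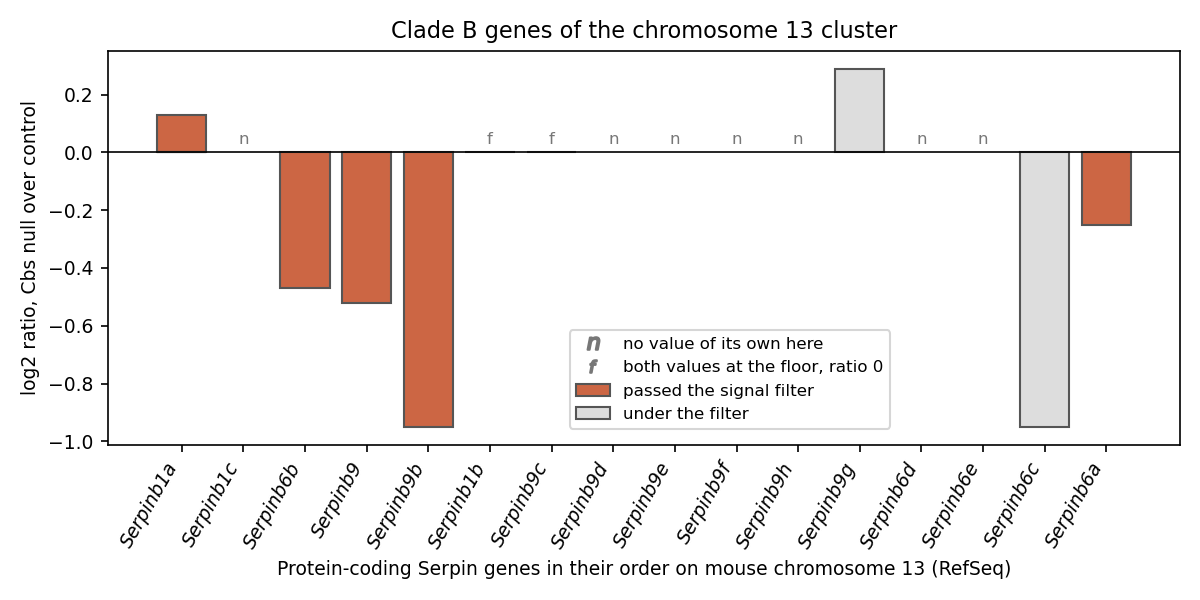
Log2 ratio of Cbs null over control for the 16 protein-coding Serpin genes of mouse chromosome 13, in their RefSeq order without a scale of distance. Orange bars are measured genes, grey bars genes under the signal filter, n marks genes with no value of their own and f marks genes with both values at the floor. The adjacent Serpinb6b, Serpinb9 and Serpinb9b hold the lowest orange bars, from -0.47 to -0.95.

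Because these neighbours were lower together, the 250 bases before their start sites are shown, with those of Serpinf1, the highest measured member, for comparison. The sequences are from RefSeq on GRCm38.p6, and 7 of the 9 measured genes were matched there, with 8 windows. They read 5′ to 3′ on the strand of the gene, and capitals mark every match to a searched motif on either strand. The windows are chr13:32965011-32965260 (plus strand) for Serpinb6b, chr13:33004291-33004540 (plus strand) for Serpinb9, chr13:33027164-33027413 (plus strand) for Serpinb9b and chr11:75422624-75422873 (minus strand) for Serpinf1.
Serpinb6b: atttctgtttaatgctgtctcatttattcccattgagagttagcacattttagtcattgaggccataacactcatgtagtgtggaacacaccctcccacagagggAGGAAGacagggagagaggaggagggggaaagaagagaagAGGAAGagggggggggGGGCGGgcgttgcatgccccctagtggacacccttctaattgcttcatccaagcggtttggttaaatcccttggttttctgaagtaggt
Serpinb9: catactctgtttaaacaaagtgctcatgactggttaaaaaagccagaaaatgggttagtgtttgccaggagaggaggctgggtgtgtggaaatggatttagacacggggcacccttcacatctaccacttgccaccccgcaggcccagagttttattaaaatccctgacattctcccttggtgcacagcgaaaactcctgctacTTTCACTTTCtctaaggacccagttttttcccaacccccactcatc
Serpinb9b: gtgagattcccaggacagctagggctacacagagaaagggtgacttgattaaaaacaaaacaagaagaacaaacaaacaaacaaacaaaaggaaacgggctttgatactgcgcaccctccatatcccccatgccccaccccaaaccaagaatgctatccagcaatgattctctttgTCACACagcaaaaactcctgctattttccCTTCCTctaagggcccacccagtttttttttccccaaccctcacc
Serpinf1: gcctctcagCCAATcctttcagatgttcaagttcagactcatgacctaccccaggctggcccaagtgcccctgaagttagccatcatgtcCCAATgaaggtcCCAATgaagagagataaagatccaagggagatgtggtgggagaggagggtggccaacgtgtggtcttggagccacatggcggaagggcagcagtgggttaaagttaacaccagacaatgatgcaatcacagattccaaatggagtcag

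The motifs searched were the TATA box (TATAAA), the CCAAT box (CCAAT), the GC box (GGGCGG), AP-1 (TGANTCA), an interferon response pair (GAAA, then 2 bases of any kind, then GAAA again), a gamma interferon site (TTCNNNGAA), an ETS core (AGGAAG) and a T-box core (TCACAC). No 2 matches overlapped in the printed windows. Serpinb9 had a single match, to the interferon response pair on the minus strand, starting 46 bases before the start site, and 2.98% of all 32851 RefSeq windows of this length hold that motif. The same motif occurred in 1 window of Serpinb6a, starting 84 bases before its start site. Serpinb9b had an ETS match at 45 bases and a T-box match at 74, motifs held by 29.5% and 12.3% of all windows. Serpinb6b had ETS matches at 145 and 105 bases and a GC box at 89, the latter held by 32.7% of windows. Serpinf1 had CCAAT boxes at 241, 160 and 148 bases, a motif held by 33.8%. Each match describes letters only, and no motif was present in all 3 lower genes. Serpinb9 and Serpinb9b were alike over these windows, with 163 identical bases over 280 columns of a global alignment (58.2%). The other 14 pairs among measured genes with a single window lay between 41.6% and 52.1%, and Serpinb6b against Serpinb9 gave 45.3%.

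Further clade B copies were seen through a shared probe set. The probe set assigned jointly to Serpinb9e, Serpinb9f, Serpinb9g and Serpinb9h read 60.6 in control and 87.9 in Cbs null, a ratio of 0.54. It passed the filter only through the Cbs null value, and the signal cannot be split among these genes. The probe set of Serpinb9g alone was dim, at 26.3 and 32.2 with a ratio of 0.29. These copies lie in the same chromosome 13 cluster as Serpinb9b, which was lower. Of 10 trophoblast markers on the array 5 passed the filter, and Prl4a1, Prl2b1 and Ceacam11 did so only through the Cbs null array, so their direction was set by the filter. The other markers were Tpbpa, of spongiotrophoblast, at 228.1 and 598.7, and Eomes at 145.7 and 97.8. Tpbpa and Eomes thus went opposite ways, and the part of trophoblast in the shared probe set's value was not tested.

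Serpinf1 was the highest of the measured Serpin genes. It encodes pigment epithelium-derived factor, a secreted protein that restrains vessel growth and does not inhibit proteases. Its brighter probe set read 1328.8 on the control array and 1889.7 on the Cbs null array, 1.42-fold higher at a log2 ratio of 0.51. The other probe set read 420.8 and 552.4, a ratio of 0.39, so both probe sets were higher in Cbs null. A ratio as high as 0.51 was found for 3.62% of measured genes and 2.12% of those in the bright tertile. Fat cell markers were higher on the same array, with 3 of 4 measured genes above 0, a median of 0.67 and a summed signal of 2521.4 against 4155.3. Endothelial and platelet markers had a median of 0.06, with 5 of 10 measured genes above 0. Among all measured genes 44.9% had a ratio below 0, and the median was 0.02. The part of either list in the Serpinf1 value was not tested.

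The other secreted or secretory-pathway members were nearly level. Serping1, the C1 inhibitor that blocks the first proteases of complement and plasma kallikrein, read 3551.5 in control and 3834.0 in Cbs null, a ratio of 0.11 that 33.2% of measured genes reached. Serpinh1, the collagen chaperone HSP47 of the endoplasmic reticulum, read 4487.7 and 4234.6 in one probe set and 4386.8 and 4130.5 in the other, with ratios of -0.08 and -0.09. Serpina3n, an acute phase relative of antichymotrypsin, read 390.1 and 361.9, a ratio of -0.11. These 3 genes and Serpinb1a and Serpinb6a make up the 5 that differed by less than 1.2-fold. The SD of the difference between the ratios of the 2 brightest measured probe sets of a gene was 0.30 over 2284 genes. The ratios of these 5 genes are smaller than that. This SD describes probe sets on the same arrays and not variation between animals, so it does not show that larger ratios stand clear of such variation.

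The dim Serpin genes were a mix of plasma serpins made chiefly by liver in the adult, such as Serpinc1, and of clade B and clade I genes. Serping1 and Serpina3n, described above, were not among them. Of the 21 Serpin genes under the filter, 9 were at or under the floor of 14.3 on both arrays, namely Serpina5, Serpina6, Serpina10, Serpina12, Serpinb1b, Serpinb2, Serpinb7, Serpinb9c and Serpini2. Another 4 were above it on 1 array (Serpina1c, Serpina3a, Serpind1 and Serpinf2), and 8 on both (Serpina1b, Serpinb5, Serpinb6c, Serpinb8, Serpinb9g, Serpinb11, Serpinc1 and Serpini1). Control signals of the 21 ran from 1.2 to 60.1 and Cbs null signals from 0.9 to 32.5. Among the 8 with both values above the floor, 2 were at least 2-fold lower, against 1.52% of all such dim genes, and none at least 2-fold higher, against 2.82%. With the filter at the 25th percentile, 5 of 19 measured Serpin genes were at least 1.5-fold lower, against 3.67% of all genes, and 2 at least 1.5-fold higher, against 5.10%. With no filter the same counts of 5 and 2 were over 30 genes, against 2.95% and 4.07%. Most of these genes read near the floor, where ratios are imprecise.

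Serpinc1, antithrombin, was 2-fold lower among these dim genes, at 44.0 in control and 18.2 in Cbs null with a ratio of -1.27. Serpina1b, an alpha-1-antitrypsin copy, read 30.0 and 14.7, a ratio of -1.03, while its other probe set stayed under the floor at 12.4 and 13.3. With a floor at the 40th percentile these ratios were -0.15 and 0.00, so their size is not resolved at this signal. Chosen after its values were seen, Serpina1c, another alpha-1-antitrypsin copy, read 60.1 and 12.4, and Serpinf2, alpha-2-antiplasmin, read 9.1 and 32.5. The alpha-1-antitrypsin copies are near-identical and their probe sets disagreed. The set shared by Serpina1d and Serpina1a read 18.0 and 6.1, and the set shared by Serpina1e, Serpina1c and Serpina1b read 11.8 and 23.2. Of 16 yolk sac and liver markers on the array only 4 were measured and 6 were under the floor on both arrays. Among the 4, Alb, serum albumin, was lower at 130.7 and 52.9, while Afp, the fetal plasma protein, was higher at 24.7 and 384.6, and each passed the filter through its higher value alone. Their part in these values was not tested.

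Proteases known as serpin targets had ratios on both sides of 0. Of 34 listed genes on the array 11 were measured, with 7 above 0, 4 below and a median of 0.24. The share of all measured genes below 0 was 44.9%. Of the 11, 2 were higher and 3 lower by 1.5-fold or more, against 2.46% and 1.33% of all measured genes. The 3 at least 1.5-fold lower were the granule proteases Gzmb, Gzma and Ctsg, and the fourth below 0 was Casp1, a caspase, at -0.23. Gzmb, granzyme B, read 1892.2 in control and 1110.0 in Cbs null, a ratio of -0.77 beside -0.52 for its inhibitor Serpinb9. Gzma, granzyme A, read 1247.7 and 557.4, a ratio of -1.16 beside -0.47 for Serpinb6b. Ctsg, cathepsin G, read 183.0 and 93.1, a ratio of -0.97 beside -0.25 for Serpinb6a. In each of these 3 pairs the protease ratio was further below 0 than that of the serpin. Serpinb9b, the close relative of Serpinb9, was not paired, and its ratio of -0.95 was below that of Gzmb. The gap between Gzmb and Serpinb9 is smaller than the SD of 0.30 between probe sets of a gene. Whether any gap exceeds variation between animals cannot be judged with 1 array each. Natural killer cell markers, which include both granzymes, had a median of -0.97 on the same arrays. Neutrophil and mast cell markers had 3 of 3 measured genes below 0, of 12 on the array, with a median of -0.35 and a summed signal of 1028.3 against 775.2. The part of either list in these values was not tested. The highest target was Tmprss2, a membrane protease of epithelia, at 75.2 and 146.5 with 0.96. Epithelial markers were higher on the same array, with 14 of 15 measured genes above 0, of which Calb1 passed the filter through the Cbs null array alone, and a median of 0.64, and their part in this value was not tested.

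The complement proteases bound by Serping1 were under 1.5-fold apart or uncertain. C1ra and C1s1, the proteases of the first complement component, had ratios of 0.25 and 0.24, beside 0.11 for Serping1. Masp1, a protease of the lectin pathway, had 0.69 in its brighter probe set, from 118.3 to 190.9, but -0.09 in the other. Plat, tissue plasminogen activator, read 368.8 and 445.3, a ratio of 0.27. Macrophage markers, which include complement C1q chains, had 11 of 13 measured genes above 0 and a median of 0.43. Among all measured genes 44.9% had a ratio below 0, and the median was 0.02. The part of macrophage markers in the complement protease values was not tested.

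**Figure D4:**
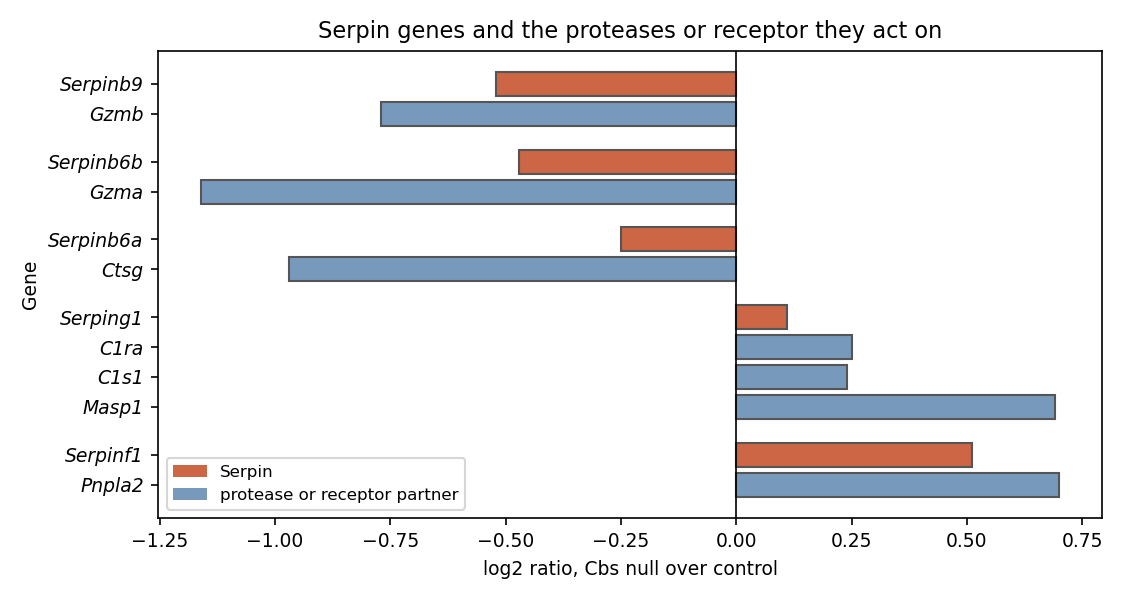
Log2 ratio of Cbs null over control for 5 measured Serpin genes (orange) and the protease or receptor partners listed under each (blue), 1 array per genotype and the brightest probe set of each gene. The granzyme and cathepsin G pairs lie left of 0 with the protease lower than the serpin, and the Serping1 and Serpinf1 groups lie right of 0. Serpinb9b, at -0.95, is not drawn.

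Receptors and cofactors of serpins were mostly level. Of 19 listed genes on the array 14 were measured, with a median of 0.11 and 10 above 0. The other 4 were below 0, against 44.9% of all measured genes. In the brightest probe set 2 were higher by 1.5-fold or more and none was lower by as much, against 2.46% and 1.33%. Sdc2, a heparan sulfate proteoglycan, had -0.12 in that probe set but -0.33 and -1.50 in the others. Pnpla2, a lipase that also serves as a receptor for the Serpinf1 protein, read 160.3 on the control array and 260.6 on the Cbs null array, 1.63-fold higher at 0.70. Sdc4, of the same family as Sdc2, read 314.8 and 1127.2, a ratio of 1.84, but its other measured probe set had -0.38. Glce, an enzyme of heparan sulfate synthesis, had 0.32 and Procr, the receptor of protein C, 0.19. Lrp1, the main uptake receptor for serpin and protease complexes, had 0.09.

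Inhibitors of other families included ratios further above 0 than any measured Serpin gene. Of 34 listed genes on the array 22 were measured, with a median of 0.05 and 13 above 0. The other 9 were below 0, against 44.9% of all measured genes. None was lower by 1.5-fold or more, against 1.33% of all measured genes, and 4 were higher by as much, against 2.46%. These 4 were Spink1, a trypsin inhibitor, at 3.13, Wfdc18, a whey acidic protein relative, at 1.89, Tfpi2, a Kunitz inhibitor of plasmin and the tissue factor pathway, at 0.77 and Spint1, an inhibitor of hepatocyte growth factor activator, at 0.69. A2m, alpha-2-macroglobulin, was the lowest, at -0.40. Spink1 and Wfdc2 are also among the epithelial markers, so that list is not independent of this one. The epithelial ratios ran from -0.02 for Cdh1 to 3.13 for Spink1 itself, with a median of 0.64. Their part in these ratios was not tested. The measured Serpin genes ran from -0.95 to 0.51. They thus reached further below 0 than the list of other inhibitors and less far above it, a description with no test.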

How the data were processed

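RNA was hybridised to 1 Affymetrix mouse array per genotype, from 2 microg of total RNA per array, per the labels' protocols. The authors deposited a linear intensity for each probe set, for which the submitters' processing notes name GCOS 1.4. The algorithm, the detection calls and the genome build used with it are not given in the sources read here. Of 22690 probe sets, 64 controls were left out. Symbols came from the platform annotation, and all 30 Serpin symbols matched a RefSeq table of GRCm38.p6, used for names and gene order.

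The floor was the 25th percentile of both arrays, and 24.9% of values on the control array and 25.0% on the Cbs null array were raised to it. Where a gene had several probe sets, the brightest by mean signal was used. A log2 ratio was computed per gene, with no p-value. All Serpin genes were accounted for, and from the other lists up to 4 genes furthest from 0 were named, with known partners and, as later picks, A2m, Afp, Alb, Lrp1 and Plat. The members and lists were chosen with earlier results of these data known. Promoter windows were aligned globally and searched in Python 3.11. The ratio script was tested on simulated data. Up to 11 alternatives were run per result, fewer where a filter or suffix left a probe set out. The number of arrays limits the precision.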

Additional observations from a re-analysis of the deposited data

How the results depend on the processing

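Counts and medians moved mainly with the signal filter. With the filter at the 25th percentile, 19 Serpin genes were measured and clade B had a median of -0.36. Of the 19, 5 were at least 1.5-fold lower, against 3.67% of all genes, and 2 higher, against 5.10%. Serpina1b, Serpina1c, Serpinb6c and Serpinc1 joined Serpinb9b among the lower, and Serpinb11 and Serpinf2 were the higher. With no filter the counts were again 5 and 2, against 2.95% and 4.07% of all genes. The medians of all Serpin genes and of clade B were then 0.00, since genes at the floor on both arrays have a ratio of 0. With the filter at the 75th percentile 7 were measured and 0 were 1.5-fold lower, because Serpinb9b was no longer among them. The target list median was 0.08 with the filter at the 25th percentile and 0.00 with none. When probe sets with an _s_at, _x_at or _a_at suffix were dropped, the receptor and cofactor list had a median of -0.08. Ratios of dim genes moved with the floor. With the floor at the 40th percentile, Serpinc1 had -0.15, Serpina1b 0.00, Serpina1c -0.60 and Serpinf2 0.00, against -1.27, -1.03, -2.07 and 1.18 at the main floor. With a pseudocount the first 3 had -0.81, -0.58 and -1.42, and Serpinf2 had 1.84 with the floor at the 10th percentile. Quantile normalization, median centring and loess left the sign of every measured Serpin gene as reported, and Serpinb9b ranged from -0.98 to -0.86, Serpinb9 from -0.53 to -0.50, Serpinb6b from -0.48 to -0.45 and Serpinf1 from 0.45 to 0.54 over their alternatives. No paired analysis was possible because each genotype has 1 array.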
